A study of Mus musculus with 9 samples.

Results

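The genes described here are 9 writers, erasers and readers of DNA methylation, Dnmt1, Dnmt3a, Dnmt3b, Uhrf1, Tet1, Tet2, Tet3, Mbd2 and Tdg. They were found by their symbols among the 16399 genes listed for each library, and all 9 were present. The libraries came from cultured MC38 cells, a mouse colon carcinoma line that carried GFP and firefly luciferase as labels. MC38-P was the parental line. MC38-LM3a and MC38-LM3b were liver metastatic derivatives of it, obtained by repeated injection into the spleen of immunocompetent mice and recovery of the cells from liver lesions. The paper calls them independently derived and names MC38-LM1 and MC38-LM2 as earlier derivatives, so they may share earlier rounds of selection. The derivatives are selected cell populations, and selection in the host and further passage cannot be told apart in this design. Each group had 3 libraries described as biological replicates. No treatment was given and poly(A) RNA was sequenced. P-values measure only the spread between these libraries.

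Methylation of cytosine in CpG dinucleotides is copied to the new strand after replication by Dnmt1, which Uhrf1 brings to hemimethylated sites. Dnmt3a and Dnmt3b place methyl groups on unmethylated DNA. Tet1, Tet2 and Tet3 oxidize the methyl group, Tdg cuts the oxidized base out so that base excision repair can restore an unmodified cytosine, and Mbd2 binds methylated CpG and recruits the NuRD deacetylase complex. Transcript levels of these genes say nothing by themselves about the methylation of any site, which was not measured in these libraries. In RNA from bulk cultures, fewer cells that express a gene and less RNA per cell cannot be told apart.

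The values are TPM, a share of all transcripts that is scaled for transcript length and allows genes to be compared with each other. Depth is unknown because TPM keeps no read counts. Within MC38-P and within MC38-LM3a the libraries differed along transcript length. Across 11096 genes, the deviation of each library from its group mean had a Spearman correlation with length of 0.509, 0.413 and -0.620 in MC38-P replicates 1 to 3 and of -0.552, -0.513 and 0.644 in MC38-LM3a replicates 1 to 3, but stayed between -0.013 and 0.016 in MC38-LM3b. Replicate 3 of MC38-P and replicate 3 of MC38-LM3a thus stood apart from their groups, in opposite directions. The longest annotated transcripts of Dnmt1, Dnmt3a, Tet2 and Tet3 have 5870, 9685, 9179 and 10904 bases, whereas that of Mbd2 has 1953. Every comparison is therefore given on log2(TPM + 1) as deposited and again after each library was corrected for GC content and transcript length. The uncorrected values of all tested genes also had a median log2 fold change of 0.21 for MC38-LM3b against MC38-P and of 0.00 for MC38-LM3a against MC38-P, and uncorrected changes in MC38-LM3b should be read relative to that median. After correction both medians were 0.01 or less in size. Of 11 epithelial markers, all were listed and 7 reached 1 TPM in a library. Their summed level was 2004 to 2318 TPM in MC38-P, 1593 to 1812 TPM in MC38-LM3a and 1585 to 1630 TPM in MC38-LM3b. Of the 6 tested, 4 were called lower and 2 higher in MC38-LM3a, and 4 lower and none higher in MC38-LM3b, on both scales, and the 2 higher were Krt19 and Krt20. The largest falls were those of Epcam in MC38-LM3a (-1.14, corrected -1.18) and Cdx2 in MC38-LM3b (-1.20, corrected -1.32).

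By level, the genes of maintenance methylation stood highest and Tet1 lowest in each line. In MC38-P, Uhrf1 (186 ± 14.7 TPM, SD, n = 3) and Dnmt1 (179 ± 21.6 TPM) led and their ranges overlapped. Tdg (97.2 ± 7.17 TPM) and Mbd2 (91.7 ± 7.25 TPM) came next, again with overlapping ranges. Dnmt3a (22.2 ± 5.15 TPM) and Tet3 (21.2 ± 4.66 TPM) formed a further overlapping pair. Tet2 followed at 6.51 ± 1.84 TPM, Dnmt3b at 1.99 ± 0.315 TPM, and Tet1 was listed between 0.05 and 0.13 TPM. In both derivatives Dnmt1 stood ahead of Uhrf1, Mbd2 ahead of Tdg and Tet3 ahead of Dnmt3a, the reverse of the order of each of these pairs in MC38-P. In MC38-LM3a the first and the last of these rest on replicate 3, since Uhrf1 exceeded Dnmt1 and Dnmt3a exceeded Tet3 in replicates 1 and 2. In MC38-LM3a the ranges of Dnmt1 and Uhrf1 and those of Tet3 and Dnmt3a overlapped, whereas in MC38-LM3b no neighbouring ranges overlapped.

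**Figure D1:**
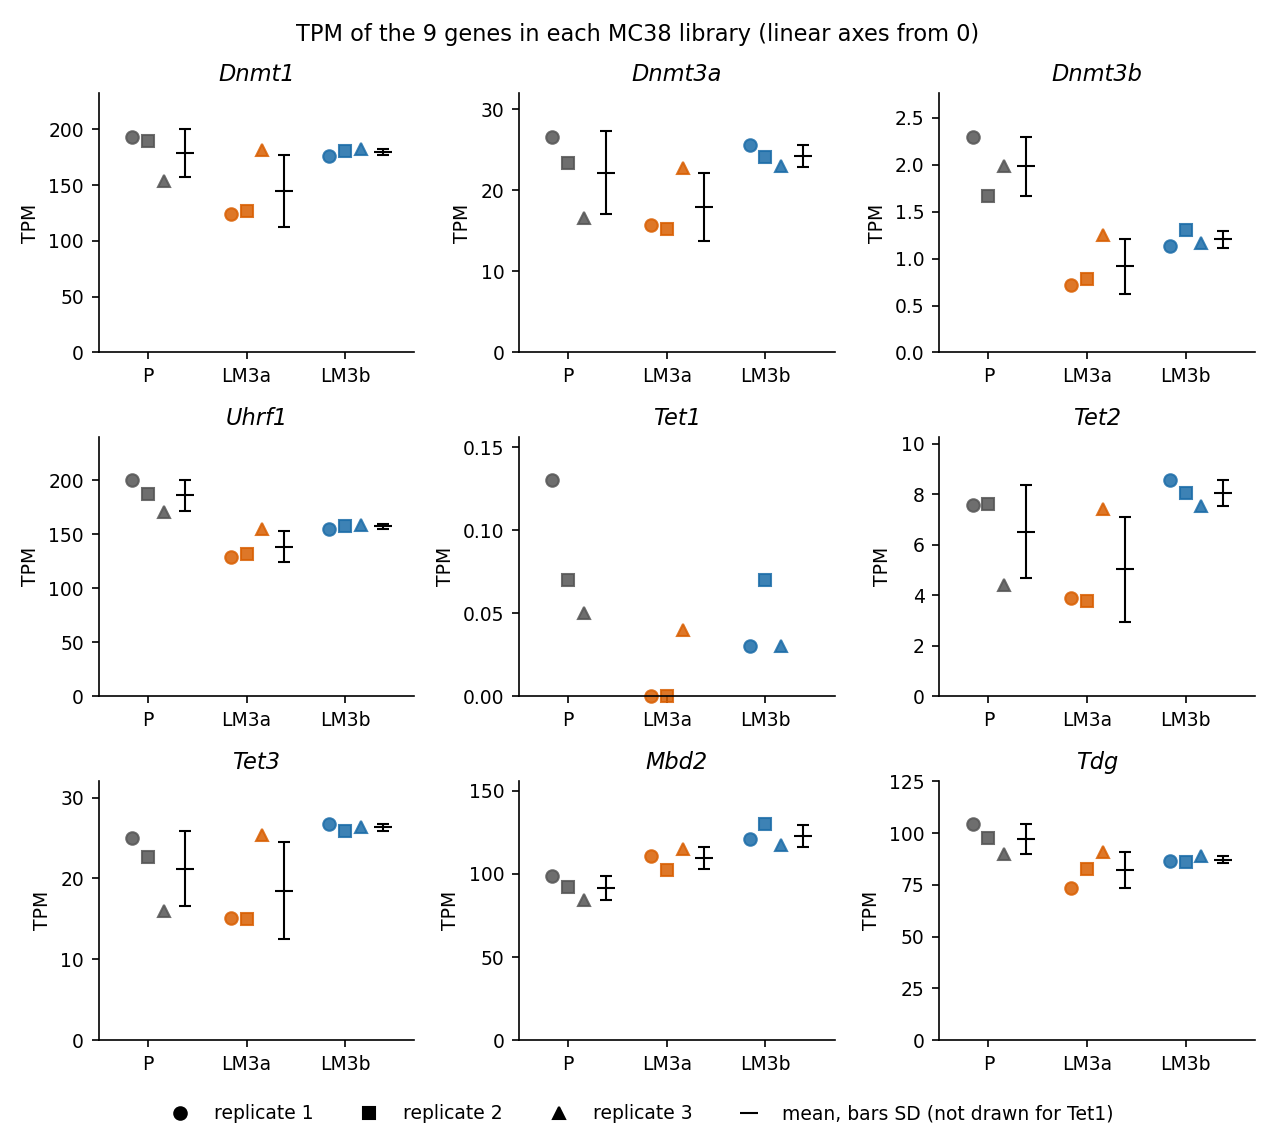
TPM of each gene in each library (vertical axes, linear from 0) by cell line (horizontal axes), with symbols for replicates 1 to 3 and bars for the mean and SD of 3 libraries. Uhrf1 and Dnmt3b lie lower and Mbd2 higher in all 6 derivative libraries than in MC38-P, while the replicate 3 triangles of MC38-P and MC38-LM3a sit apart from their groups for Dnmt1, Dnmt3a, Tet2 and Tet3.

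Uhrf1 and Dnmt3b were lower and Mbd2 was higher in both derivatives compared to MC38-P, and these were the only members called in either uncorrected comparison. Of the 9 genes, 8 passed the filter of 1 TPM in at least 3 libraries and were tested, and Tet1 did not. For MC38-LM3a against MC38-P, limma called 1 of the 8 higher and 2 lower at an adjusted p-value under 0.05, where 14.1% of all 11287 tested genes were called higher and 13.8% lower. For MC38-LM3b against MC38-P, it called again 1 higher and 2 lower, beside 35.6% and 11.2% of all tested genes. None of the 8 had an absolute log2 fold change above 1 in addition, a rule met by 2.89% of tested genes for MC38-LM3a and 3.93% for MC38-LM3b; at a pseudocount of 0.1 TPM, Dnmt3b passed it in MC38-LM3a with -1.06. Both comparisons share the 3 MC38-P libraries, so the second is not an independent repeat of the first.

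After correction for GC content and length, Dnmt1, Dnmt3a and Tdg joined Uhrf1 and Dnmt3b among the lower genes, so that 5 of 8 were called lower and 1, Mbd2, higher in each derivative. The background was 24.9% of 11096 genes called lower and 26.1% called higher for MC38-LM3a, and 28.8% and 29.1% for MC38-LM3b. The median log2 fold change of the 8 members was -0.24 in both corrected comparisons, beside medians of 0.004 and 0.006 for all tested genes. Without correction the members' medians were -0.31 for MC38-LM3a and 0.08 for MC38-LM3b, the latter beside 0.21 for all genes. With both replicate 3 libraries that stood apart left out, the corrected counts were 7 lower and 1 higher for MC38-LM3a, beside 27.6% and 29.4% of all genes, and 5 lower and 1 higher for MC38-LM3b, beside 30.8% and 30.9%. In MC38-LM3a the uncorrected count of lower members went from 2 to 5 without MC38-P replicate 3 and to 7 without MC38-LM3a replicate 3, where the share of all genes called lower was 16.9% and 23.2%.

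**Figure D2:**
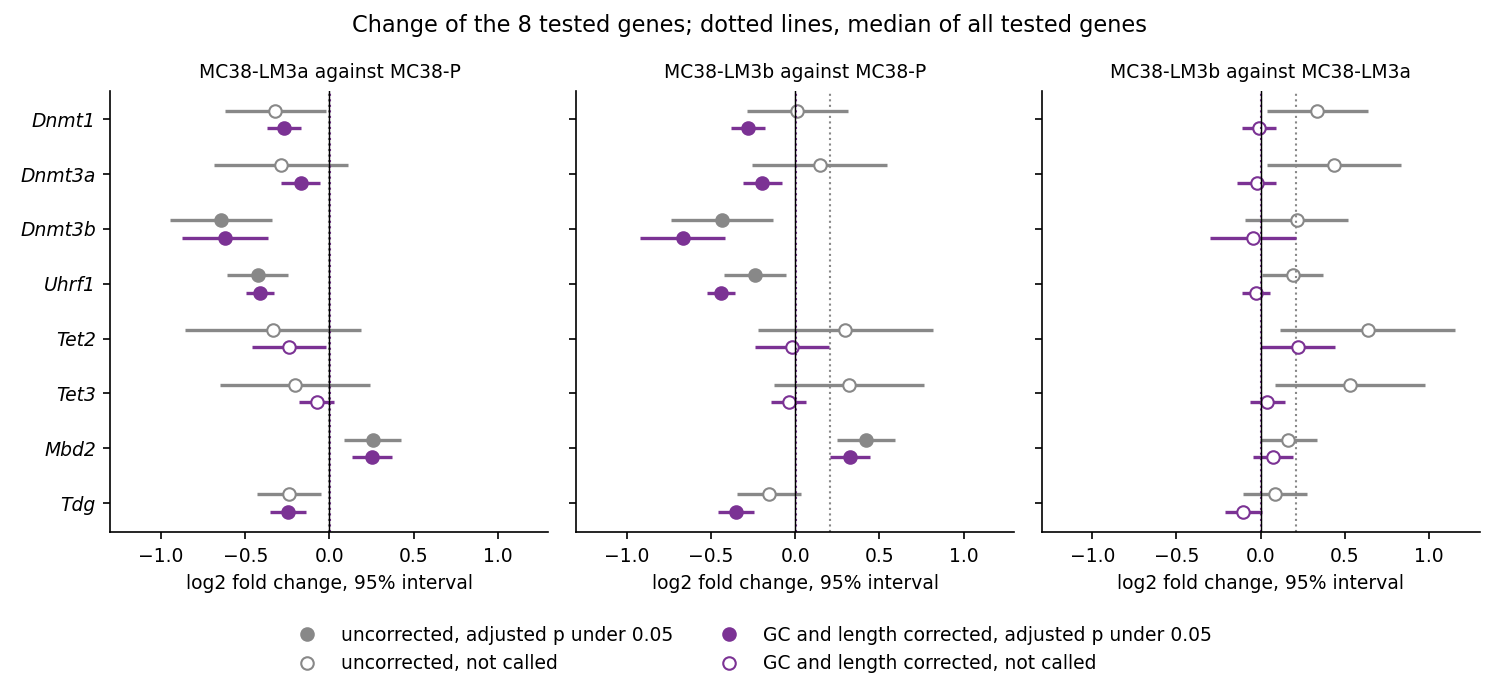
Log2 fold change of the 8 tested genes (horizontal axes) with 95% intervals from limma, uncorrected in grey and corrected for GC content and length in purple, filled where the adjusted p-value is under 0.05. Dotted lines mark the median of all tested genes, which is 0.21 in the uncorrected comparisons of MC38-LM3b; the purple intervals are narrower, and 6 genes are filled in each comparison with MC38-P and none between the derivatives.

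Uhrf1, the protein that recognizes hemimethylated CpG, was lower in both derivatives on both scales. Its level was 200, 188 and 171 TPM in MC38-P replicates 1 to 3, 129, 132 and 155 TPM in MC38-LM3a and 155, 158 and 159 TPM in MC38-LM3b. Every derivative library was thus below every MC38-P library. The uncorrected log2 fold change was -0.43 (SE 0.0825, adjusted p = 0.00323) in MC38-LM3a and -0.24 (SE 0.0825, adjusted p = 0.0364) in MC38-LM3b by limma. The second call was lost without MC38-P replicate 1 (adjusted p = 0.110) or replicate 2 (0.0902), and without any 1 of the MC38-LM3b replicates (0.0814 to 0.104). After correction the change was -0.41 (SE 0.0382, adjusted p = 1.3e-05) in MC38-LM3a and -0.44 (SE 0.0382, adjusted p = 6.77e-06) in MC38-LM3b. Both corrected calls held when either or both of the replicate 3 libraries that stood apart were left out, with changes of -0.41 in MC38-LM3a and of -0.44 to -0.43 in MC38-LM3b. Its corrected log2 levels ran from 7.58 to 7.62 in the MC38-P libraries, from 7.16 to 7.23 in those of MC38-LM3a and from 7.12 to 7.20 in those of MC38-LM3b.

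Dnmt1, the maintenance methyltransferase, was called lower in both derivatives after correction, but not on the uncorrected values of all 9 libraries. It stood at 194, 189 and 154 TPM in MC38-P, at 125, 127 and 182 TPM in MC38-LM3a and at 176, 181 and 182 TPM in MC38-LM3b. The low library of MC38-P and the high library of MC38-LM3a, both replicate 3, made the groups overlap. Uncorrected, limma gave -0.32 (SE 0.135, adjusted p = 0.104) for MC38-LM3a and 0.01 (SE 0.135, adjusted p = 0.936) for MC38-LM3b. Corrected, it gave -0.27 (SE 0.0452, adjusted p = 0.000631) and -0.28 (SE 0.0452, adjusted p = 0.000427), so the sign in MC38-LM3b turned. The corrected levels of the groups did not overlap, with 7.53 to 7.59 in the MC38-P libraries against 7.22 to 7.37 for MC38-LM3a and 7.24 to 7.32 for MC38-LM3b. Without both replicate 3 libraries that stood apart, the uncorrected change was -0.60 (adjusted p = 1.16e-06) in MC38-LM3a and -0.09 (adjusted p = 0.0368) in MC38-LM3b. Of all genes, 45.2% and 19.0% were called lower in these comparisons, and their median change was -0.14 and 0.14.

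Dnmt1 and Uhrf1 are known as genes of proliferating cells whose promoters E2F factors bind. The RefSeq promoter windows of GRCm38.p6, 250 bases before to 50 bases after each annotated start, were therefore searched on both strands for the E2F words TTTCCCGC, TTTCGCGC, TTTGCCGC and TTTGGCGC and for GGGCGG, the GC box. These words can share letters with each other where they adjoin. Windows were matched for 8 members, all but Mbd2. The GC box was found in at least 1 window of each of these but Tdg. Of all windows 55.7% held it, a share per window that is not like a count of genes with up to 3 windows each. Only 1 of the 3 Dnmt1 windows and 1 of the 2 Uhrf1 windows held an E2F word, beside 3.43% of all 16221 windows of genes in these data. The Dnmt1 window spans chr9:20952574-20952873 on the minus strand. TTTCGCGC lies on the opposite strand 219 bases before the start, and TTTGGCGC begins 34 bases after it, and GENCODE M21 annotates both stretches as exonic UTR of Dnmt1. The Uhrf1 window spans chr17:56304063-56304362 on the plus strand, its TTTCGCGC begins 185 bases before the start, and the 250 bases before that start touch no annotated Uhrf1 exon. The stretches are shown because they hold the E2F words of the maintenance pair, of which TTTCGCGC is found in both genes and TTTGGCGC in Dnmt1 alone, and capitals mark the word, on the strand of the gene, 5′ to 3′.
Dnmt1, chr9:20952824-20952853, minus strand: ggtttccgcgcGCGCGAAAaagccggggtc
Dnmt1, chr9:20952574-20952601, minus strand: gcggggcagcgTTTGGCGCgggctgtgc
Uhrf1, chr17:56304063-56304312, plus strand: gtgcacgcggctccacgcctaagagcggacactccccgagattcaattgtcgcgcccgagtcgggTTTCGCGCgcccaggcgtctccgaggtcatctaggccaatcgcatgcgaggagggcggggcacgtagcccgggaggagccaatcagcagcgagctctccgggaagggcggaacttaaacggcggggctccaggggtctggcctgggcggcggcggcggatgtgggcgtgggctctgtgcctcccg
A match is a description of letters and not a shown binding site. The same Dnmt1 and Uhrf1 windows each held 33 CpG, where the median of all windows was 18.

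Among the de novo methyltransferases, Dnmt3b was lower in both derivatives and was scarce in each line. It stood at 2.30, 1.67 and 1.99 TPM in MC38-P, at 0.72, 0.78 and 1.25 TPM in MC38-LM3a and at 1.14, 1.31 and 1.17 TPM in MC38-LM3b. All 6 derivative libraries were below the lowest MC38-P library, and MC38-LM3a had 0.461 and MC38-LM3b 0.607 of the mean MC38-P level. The uncorrected log2 fold change was -0.65 (SE 0.137, adjusted p = 0.00549) in MC38-LM3a and -0.43 (SE 0.137, adjusted p = 0.0256) in MC38-LM3b, on a scale that understates the change of a gene this low. The call in MC38-LM3b was lost without MC38-P replicate 1 (adjusted p = 0.0775) or replicate 3 (0.0566) and without any 1 of the MC38-LM3b replicates (0.0517 to 0.0791). Corrected values gave -0.62 (SE 0.114, adjusted p = 0.00115) and -0.67 (SE 0.114, adjusted p = 0.00061), the largest falls of any member, and both stayed called without the libraries that stood apart. The gene lies at chr2:153649411-153687730 in GRCm38.p6 and has 1 promoter window, with 30 CpG and no E2F word.

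Dnmt3a, the more abundant de novo enzyme, was not called on the uncorrected values of all 9 libraries. It stood at 26.6, 23.4 and 16.5 TPM in MC38-P, at 15.8, 15.3 and 22.8 TPM in MC38-LM3a and at 25.6, 24.2 and 23.0 TPM in MC38-LM3b. As with Dnmt1, the replicate 3 libraries of MC38-P and MC38-LM3a changed places. Limma gave -0.29 (adjusted p = 0.274) for MC38-LM3a and 0.15 (adjusted p = 0.514) for MC38-LM3b. Uncorrected, Dnmt3a was called lower in MC38-LM3a without MC38-P replicate 3, without MC38-LM3a replicate 3 or without both. The shares of all genes called lower in these fits were 16.9%, 23.2% and 45.2%. The corrected changes were small and negative, -0.17 (SE 0.0523, adjusted p = 0.0191) in MC38-LM3a and -0.20 (SE 0.0523, adjusted p = 0.00884) in MC38-LM3b. Corrected levels of 4.52 to 4.66 in MC38-P did not overlap with those of 4.38 to 4.44 in MC38-LM3a or 4.33 to 4.44 in MC38-LM3b. An antisense RNA, Dnmt3aos, is annotated inside the gene, and how the counting treated strand is not given in the sources used here.

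None of the Tet dioxygenases was called against MC38-P with all 9 libraries, on either scale. Tet3 was the main one, with 25.0, 22.6 and 16 TPM in MC38-P, 15.1, 14.9 and 25.4 TPM in MC38-LM3a and 26.7, 25.9 and 26.3 TPM in MC38-LM3b. Every MC38-LM3b library was above every MC38-P library, but the uncorrected log2 fold change of 0.32 (95% interval -0.12 to 0.77) was not called (adjusted p = 0.205) and was near the shift of all genes. In MC38-LM3a the uncorrected change of Tet3 was -0.21 (adjusted p = 0.498). Tet3 was called lower there without MC38-LM3a replicate 3 or without both replicate 3 libraries that stood apart. In these uncorrected fits 23.2% and 45.2% of all genes were called lower. Corrected, Tet3 gave -0.04 (95% interval -0.14 to 0.07, adjusted p = 0.507) in MC38-LM3b and -0.08 (95% interval -0.18 to 0.03, adjusted p = 0.201) in MC38-LM3a. Without both replicate 3 libraries that stood apart, the corrected value in MC38-LM3a was -0.12 and was called (adjusted p = 0.0491).

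Tet2 stood at 7.56, 7.59 and 4.39 TPM in MC38-P, at 3.90, 3.77 and 7.43 TPM in MC38-LM3a and at 8.54, 8.06 and 7.53 TPM in MC38-LM3b. Replicates 1 and 2 of MC38-LM3a were below all others, while replicate 3 lay within the MC38-P range. The uncorrected log2 fold change of Tet2 was -0.34 (adjusted p = 0.330) in MC38-LM3a and 0.30 (adjusted p = 0.309) in MC38-LM3b. Uncorrected, Tet2 was called lower in MC38-LM3a without MC38-LM3a replicate 3 (23.2% of all genes) or without both replicate 3 libraries (45.2%). Its corrected log2 fold change was -0.24 (95% interval -0.46 to -0.02, adjusted p = 0.0675) in MC38-LM3a and -0.02 (95% interval -0.24 to 0.20, adjusted p = 0.896) in MC38-LM3b. Leaving out MC38-P replicate 3, MC38-LM3a replicate 3 or both made the fall in MC38-LM3a a call, at -0.32 (adjusted p = 0.0249), -0.33 (adjusted p = 0.0120) and -0.41 (adjusted p = 0.00195). Tet1 was listed at 0.13, 0.07 and 0.05 TPM in MC38-P, at 0, 0 and 0.04 TPM in MC38-LM3a and at 0.03, 0.07 and 0.03 TPM in MC38-LM3b. It stayed below the filter and was not tested. The promoter windows of Tet1, Tet2 and Tet3 held 17, 57 and 22 CpG.

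Tdg, the glycosylase that removes oxidized methylcytosine, was lower in both derivatives after correction. It stood at 104, 97.4 and 89.9 TPM in MC38-P, at 73.5, 82.5 and 91.0 TPM in MC38-LM3a and at 86.5, 86.0 and 89.0 TPM in MC38-LM3b. All MC38-LM3b libraries and 2 of 3 MC38-LM3a libraries lay below the MC38-P range. Uncorrected, the log2 fold change was -0.24 (SE 0.0859, adjusted p = 0.0606) in MC38-LM3a and -0.15 (SE 0.0859, adjusted p = 0.162) in MC38-LM3b. Corrected, it was -0.25 (SE 0.0487, adjusted p = 0.00181) and -0.35 (SE 0.0487, adjusted p = 0.000156). Uncorrected values called Tdg lower in MC38-LM3a without MC38-P replicate 3 (16.9% of all genes), MC38-LM3a replicate 3 (23.2%) or both (45.2%). In MC38-LM3b they called it lower without both (19.0%). RefSeq annotates the related loci Tdg-ps and Tdg-ps2, which were not analysed here, and reads shared with them could have been counted for Tdg or lost, so its level is uncertain to that extent. The same holds for the scarce Dnmt3b with the related locus Dnmt3b-ps1, and for Dnmt3a with Dnmt3a-ps1.

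Mbd2, the methyl-CpG reader, was the only member that rose. It stood at 98.6, 92.3 and 84.1 TPM in MC38-P, at 111, 102 and 115 TPM in MC38-LM3a and at 121, 130 and 118 TPM in MC38-LM3b. Every derivative library was above every MC38-P library. The uncorrected log2 fold change was 0.26 (SE 0.0776, adjusted p = 0.0317) in MC38-LM3a and 0.42 (SE 0.0776, adjusted p = 0.00167) in MC38-LM3b. The call in MC38-LM3a was lost without MC38-P replicate 2 (adjusted p = 0.0808) or replicate 3 (0.0815), MC38-LM3a replicate 1 (0.0916) or MC38-LM3b replicate 1 (0.0537), while that in MC38-LM3b was kept with each library left out. Corrected, the change was 0.25 (SE 0.0533, adjusted p = 0.00265) in MC38-LM3a and 0.32 (SE 0.0533, adjusted p = 0.00047) in MC38-LM3b, and both were called with either or both replicate 3 libraries that stood apart left out.

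**Figure D3:**
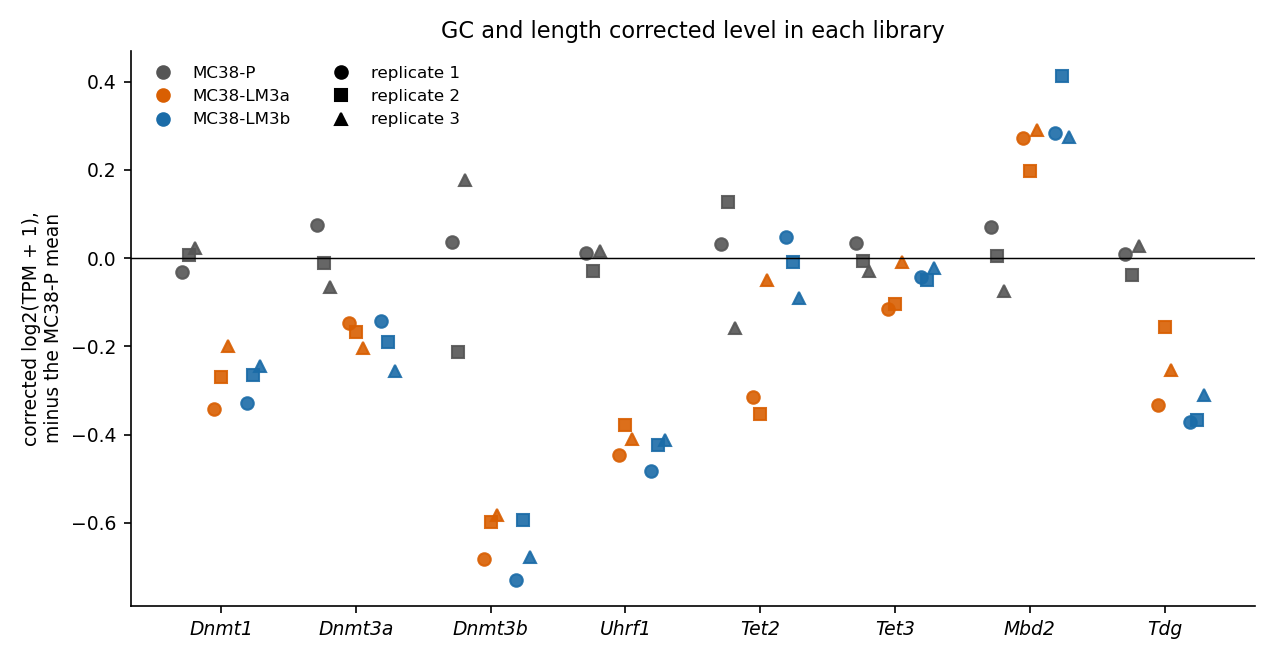
Corrected log2(TPM + 1) of each of the 8 tested genes in each library, minus the MC38-P mean (vertical axis), coloured by cell line with symbols for replicates. Derivative libraries lie below all MC38-P libraries for Dnmt1, Dnmt3a, Dnmt3b, Uhrf1 and Tdg and above them for Mbd2, and overlap with them for Tet2 and Tet3.

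MC38-LM3b against MC38-LM3a tests whether the derivatives differ from each other. None of the 8 members was called by limma, with 5 of 8 at an unadjusted p-value under 0.05 on uncorrected values and 1, Tet2, on corrected values. In all tested genes, 0.0354% were called higher and 0.0177% lower without correction, and 0.0991% and 0.108% with it, although 4296 genes had an unadjusted p-value under 0.05 without correction. The largest uncorrected differences were those of Tet2 (0.63, 95% interval 0.11 to 1.16, adjusted p = 0.119) and Tet3 (0.53, 95% interval 0.08 to 0.97, adjusted p = 0.119). The corrected differences of Dnmt1 (-0.01, 95% interval -0.11 to 0.09), Uhrf1 (-0.03, 95% interval -0.11 to 0.06) and Tet3 (0.04, 95% interval -0.07 to 0.14) had narrow intervals around 0. Without MC38-LM3a replicate 3, limma called 6 of the 8 uncorrected differences and 1 corrected difference, that of Tet2, which was 0.32 higher in MC38-LM3b (adjusted p = 0.0409). In those fits 56.4% of all genes were called without correction and 19.0% with it, so such calls were common among all genes.

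Ratios of TPM within a library do not depend on its scaling, although they still carry the length trend, and they are given as a description. Dnmt1 made up 88.2% ± 1.15 of the summed TPM of Dnmt1, Dnmt3a and Dnmt3b in MC38-P (SD, n = 3), 88.5% ± 0.289 for MC38-LM3a and 87.6% ± 0.755 for MC38-LM3b. The share of Dnmt3b ranged from 0.779% to 1.15% over the MC38-P libraries, from 0.511% to 0.608% over those of MC38-LM3a and from 0.561% to 0.635% over those of MC38-LM3b. The Dnmt1 share thus overlapped between the lines, whereas each derivative library held a smaller Dnmt3b share than any MC38-P library. Tet3 made up 74.7% to 78.3% of the summed Tet TPM in the parental libraries, 77.3% to 79.9% for MC38-LM3a and 75.7% to 77.7% for MC38-LM3b. The ratio of Mbd2 to Uhrf1 lay between 0.492 and 0.493 in the 3 MC38-P libraries, between 0.744 and 0.864 in MC38-LM3a and between 0.740 and 0.822 in MC38-LM3b. It was the tightest of the ratios given here in MC38-P. Its separation of the derivatives from MC38-P in every library follows from Mbd2 being higher and Uhrf1 lower in each, and is no further result. Mbd2 over Tdg went the same way, from 0.943 ± 0.00681 to 1.34 ± 0.150 and 1.41 ± 0.0954. Dnmt over Tet, as summed TPM, was 7.44 ± 0.877, 7.11 ± 0.747 and 5.97 ± 0.182, and the 3 MC38-LM3b libraries (5.76 to 6.09) and MC38-LM3a replicate 3 (6.26) lay below the MC38-P range of 6.80 to 8.44.

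**Figure D4:**
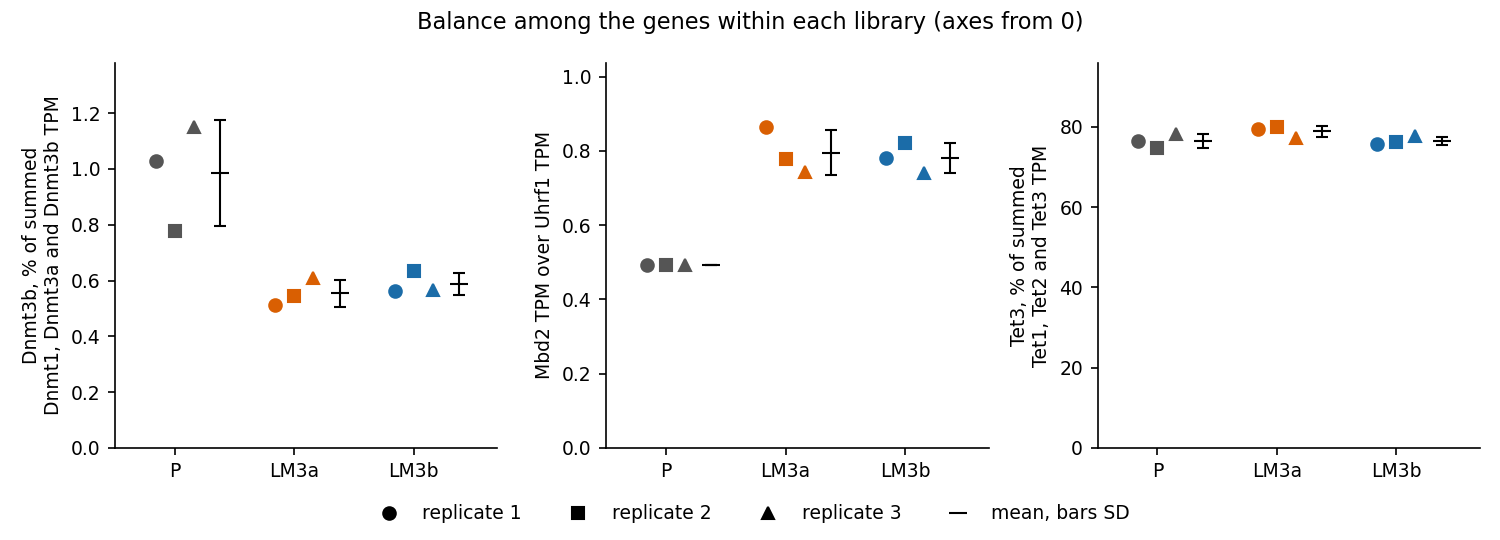
Share of Dnmt3b in the summed methyltransferase TPM, Mbd2 TPM over Uhrf1 TPM, and share of Tet3 in the summed Tet TPM in each library (vertical axes from 0), with the mean and SD of 3 libraries per cell line. The Mbd2 to Uhrf1 ratio is 0.492 to 0.493 in MC38-P and at least 0.740 in the derivatives, as follows from the levels of both genes, while the Tet3 share lies between 74.7% and 79.9% in all libraries.

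Other genes of the pathway were counted from lists that exclude the 9 members, on corrected values first. The shares to read them against are 24.9% of all genes called lower and 26.1% higher for MC38-LM3a and 28.8% and 29.1% for MC38-LM3b, and on uncorrected values 13.8% and 14.1%, then 11.2% and 35.6%. Of 5 further maintenance genes, 4 were lower and 1 higher in MC38-LM3a, and 3 were lower and 1 higher in MC38-LM3b (uncorrected 3 and 0, then 3 and 1). Their median was -0.35 and -0.47, the values of Pcna, which is also counted among the S phase genes below. The largest corrected fall in both was that of Hells, a chromatin remodeller needed for normal methylation (-0.62, adjusted p = 1.47e-06, and -0.78, adjusted p = 2.4e-07). On uncorrected values Cdca7, the partner that activates Hells, fell most in MC38-LM3b (-0.61, adjusted p = 0.000168). Uhrf2, the relative of Uhrf1, went the other way, with 0.14 (adjusted p = 0.0405) and 0.27 (adjusted p = 0.00112); the call in MC38-LM3a was lost when both libraries that stood apart were left out, where 0 of the 5 were higher.

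Of the 3 tested genes that act with de novo methylation, Setd2, which deposits the H3K36 trimethylation that Dnmt3 enzymes read, was higher (0.28, adjusted p = 0.00291, and 0.33, adjusted p = 0.000888) and Nsd1, an H3K36 dimethyltransferase, lower (-0.19, adjusted p = 0.00507, and -0.20, adjusted p = 0.0032). Uncorrected, none of the 3 was called in MC38-LM3a, with none at an unadjusted p-value under 0.05, and only Setd2 in MC38-LM3b (0.64, adjusted p = 0.0192), while Nsd1 there had the opposite sign (0.14, adjusted p = 0.561). Without both replicate 3 libraries that stood apart, uncorrected values called 2 of the 3 lower in MC38-LM3a, beside 45.2% of all genes. Of 6 genes of Tet oxidation and its supply, 2 were lower and none higher in each derivative, beside 24.9% and 28.8% of all genes called lower. The larger fall was that of Idh2, a mitochondrial isocitrate dehydrogenase that makes the Tet co-substrate 2-oxoglutarate (-0.47, adjusted p = 0.000226, and -0.56, adjusted p = 5.8e-05). Uncorrected, Idh2 was also called lower (-0.46 and -0.48), and 2 of the 6 were lower in MC38-LM3a and 1 in MC38-LM3b. Without both replicate 3 libraries that stood apart, corrected values called 5 of the 6 lower in MC38-LM3a, beside 27.6% of all genes. Uncorrected values called 6 lower there, beside 45.2%. In MC38-LM3b 2 were lower on both scales and 1 was higher uncorrected in these fits. Of 12 genes of base excision, 6 were lower (24.9% of all genes) and none higher (26.1%) in MC38-LM3a, led by the glycosylase Smug1 (-0.58, adjusted p = 4.83e-05). In MC38-LM3b 6 were lower (28.8% of all genes), led by the AP endonuclease Apex1 (-0.63, adjusted p = 7.85e-06) and 2 higher (29.1%), led by Gadd45a (0.56, adjusted p = 0.00393). Uncorrected, 4 were lower in MC38-LM3a (13.8% of all genes), and 1 was lower (11.2%) and 2 higher (35.6%) in MC38-LM3b.

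Among 11 other methyl-CpG readers and partners, 4 were higher and 1 lower in MC38-LM3a, beside 26.1% and 24.9% of all genes, and 6 were higher and 2 lower in MC38-LM3b, beside 29.1% and 28.8%. Zbtb4, a zinc finger repressor that binds methylated CpG, rose most, from 5.35 TPM in MC38-P to 10.6 and 15.3 TPM (corrected 0.93, adjusted p = 6.44e-07, and 1.04, adjusted p = 2.33e-07), and Trim28, the corepressor of KRAB zinc finger proteins, fell most (-0.32, adjusted p = 4e-05, and -0.34, adjusted p = 2e-05). Uncorrected, 1 was higher and 1 lower in MC38-LM3a and 6 were higher and none lower in MC38-LM3b, where 35.6% of all genes were called higher. Of 11 NuRD subunits that work with Mbd2, 2 were higher and 2 lower in MC38-LM3a, beside 26.1% and 24.9% of all genes, and 2 higher and 5 lower in MC38-LM3b, beside 29.1% and 28.8%. The largest corrected changes were the rise of the helicase Chd3 in MC38-LM3b (0.25, adjusted p = 0.00121) and the fall of the histone chaperone Rbbp4 there (-0.25, adjusted p = 0.00161). The deacetylase Hdac1 was 0.24 higher in MC38-LM3a (adjusted p = 0.000864) and 0.16 higher in MC38-LM3b (adjusted p = 0.00648). Hdac2 was lower in both (-0.13, adjusted p = 0.0164, and -0.22, adjusted p = 0.000672). Uncorrected, none of the NuRD genes was called lower, 1 was higher in MC38-LM3a and 2 were higher in MC38-LM3b, with Chd3 at 0.59 (adjusted p = 0.0181). Without both replicate 3 libraries that stood apart, uncorrected values called 9 of 11 readers and 10 of 11 NuRD genes lower in MC38-LM3a, whereas corrected values called 1 and 6. The share of all genes called lower in these fits was 45.2% and 27.6%.

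Supply of the methyl donor S-adenosylmethionine is shared by all methyltransferases. Of its 11 genes, 7 were lower and 2 higher in MC38-LM3a, and 7 lower and 1 higher in MC38-LM3b (uncorrected 5 and 1, then 4 and 1), with medians of -0.26 and -0.31. The shares of all genes called lower were 24.9% and 28.8%, and 13.8% and 11.2% uncorrected. Shmt1, which feeds the folate cycle, fell most (-0.68, adjusted p = 7.41e-05, and -0.80, adjusted p = 2.02e-05), and Mat2b, the regulatory subunit of methionine adenosyltransferase, rose most (0.22, adjusted p = 0.00181, and 0.21, adjusted p = 0.00247). Of 7 proteins that bind unmethylated CpG islands, 1 was higher and 1 lower in MC38-LM3a and 2 and 2 in MC38-LM3b, near or below the shares of all genes (26.1% and 24.9%, 29.1% and 28.8%). The called genes with the largest changes were the H3K4 methyltransferase Kmt2a (0.21, adjusted p = 0.0122, and 0.28, adjusted p = 0.00219) and Cxxc1 (-0.19, adjusted p = 0.00298, and -0.29, adjusted p = 0.00016). Uncorrected, none of the 7 was called in MC38-LM3a, with 1 at an unadjusted p-value under 0.05, and only Kmt2a in MC38-LM3b (0.65, adjusted p = 0.0409). Without both replicate 3 libraries that stood apart, uncorrected values called 7 of 7 lower in MC38-LM3a, beside 45.2% of all genes. Corrected values called 2 lower and 1 higher there, beside 27.6% and 29.4%.

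**Figure D5:**
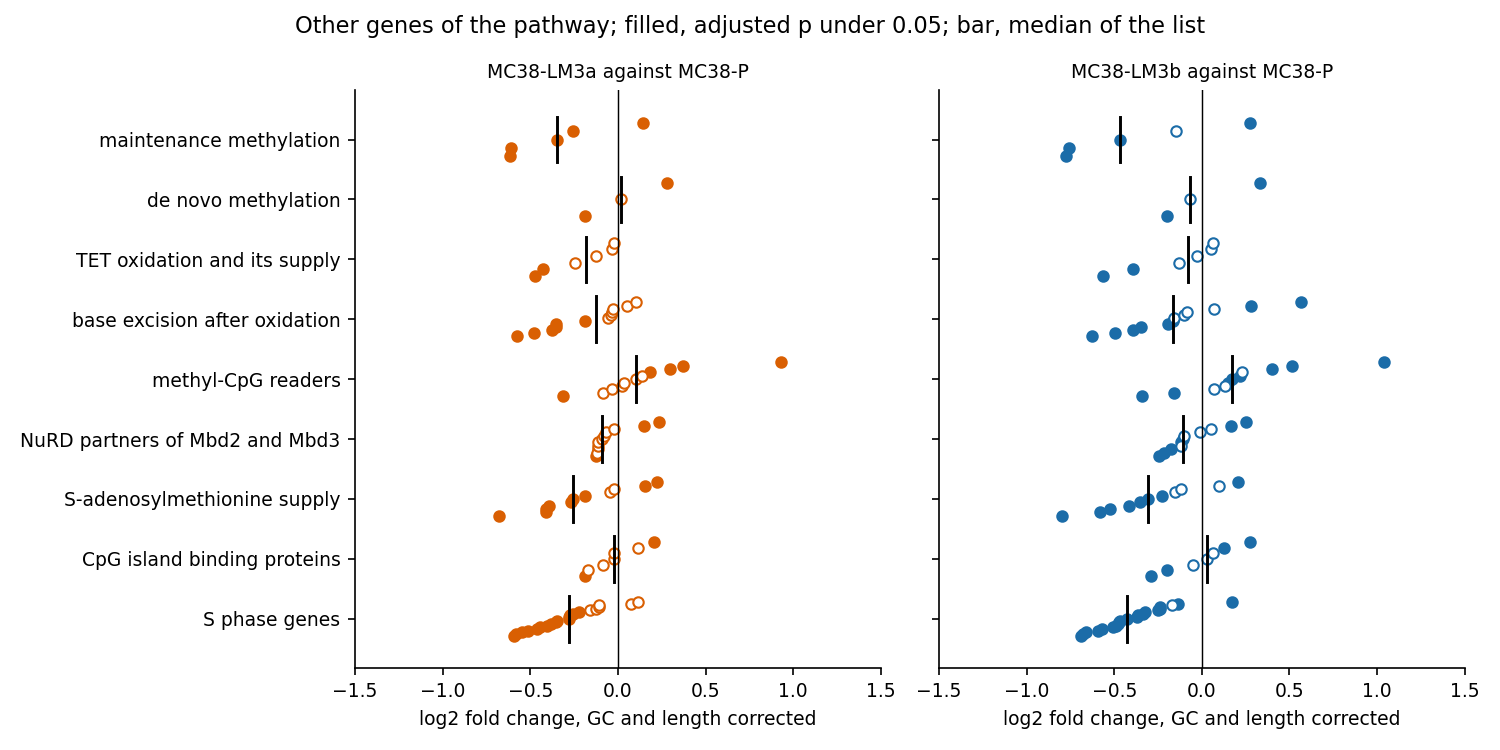
Corrected log2 fold change against MC38-P (horizontal axes) of each tested gene of 9 lists without the 9 members, for MC38-LM3a (left, orange) and MC38-LM3b (right, blue), filled where the adjusted p-value is under 0.05, with a bar at the median of each list. The medians of the maintenance (-0.35 and -0.47) and S phase lists (-0.28 and -0.43) lie lowest, and Zbtb4 is the point farthest to the right in both panels. Pcna is drawn in both the maintenance and the S phase list and is itself the maintenance median in each panel.

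Uhrf1 and Dnmt1 are made mostly in dividing cells, and most of 21 S phase genes were called lower in each derivative after correction. They were 15 lower and none higher in MC38-LM3a, beside 24.9% and 26.1% of all genes, with a median of -0.28 and the largest fall in the replicative helicase subunit Mcm2 (-0.59, adjusted p = 1.27e-06). In MC38-LM3b 19 were lower and 1 higher, beside 28.8% and 29.1%, with a median of -0.43, the largest fall in Mcm5 (-0.69, adjusted p = 1.78e-05) and the rise in E2f1 (0.17, adjusted p = 0.0267). Uncorrected, 13 were lower and none higher in MC38-LM3a, where the licensing factor Cdt1 fell most (-0.62, adjusted p = 0.00249), and 10 were lower and 1 higher in MC38-LM3b, where 13.8% and 11.2% of all genes were called lower. Without both replicate 3 libraries that stood apart, 17 were lower in each uncorrected comparison, beside 45.2% and 19.0% of all genes, and 14 and 18 in the corrected ones, beside 27.6% and 30.8%. Beside these medians stood the corrected changes of Uhrf1 (-0.41 and -0.44) and Dnmt1 (-0.27 and -0.28). On uncorrected values Uhrf1 was called lower in both derivatives (-0.43 and -0.24), whereas Dnmt1 was called in neither (-0.32 and 0.01). Whether the fall of Uhrf1, and that of Dnmt1 seen after correction, is separate from that of the S phase genes was not tested.

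Germline genes that promoter methylation is known to silence gave no detectable readout. Of 18 such genes, 10 were listed, none reached 1 TPM in any library and none was tested. Their summed level was 0.45 to 1.00 TPM in MC38-P, 0.61 to 0.68 TPM in MC38-LM3a and 0.75 to 0.87 TPM in MC38-LM3b. Markers of other cells moved with the groups to some extent. Of 9 macrophage and leukocyte markers, 5 were listed and 2 reached 1 TPM, Cd68 and Cd14, with sums of 38.89 to 40.15 TPM in MC38-P, 48.8 to 53.7 TPM in MC38-LM3a and 55.6 to 60.0 TPM in MC38-LM3b, while the defining markers Ptprc and Csf1r were at most 0.14 TPM in any library. Stellate and fibroblast markers, 6 of 7 listed and 3 at 1 TPM or more, summed to 16.9 to 23.0 TPM in MC38-P against 6.69 to 9.76 TPM and 9.05 to 10.2 TPM in the derivatives. Of the 3, Col1a1 and Acta2 were called lower in both derivatives on both scales. Pdgfrb was called higher in MC38-LM3b, with means of 1.54 TPM in MC38-P and 3.66 TPM there. Its change there was 0.88 uncorrected (adjusted p = 0.000695) and 0.60 corrected (adjusted p = 0.000413). In MC38-LM3a Pdgfrb was called higher after correction (0.35, adjusted p = 0.0110) but not before it (0.30, adjusted p = 0.135). Hepatocyte markers summed to at most 4.29 TPM, endothelial markers to at most 1.90 TPM and T cell markers to at most 0.18 TPM in any library. The part of any of these in the members' values was not tested.

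For Dnmt3b, Uhrf1 and Mbd2, the members with the largest uncorrected change when the larger of their 2 changes against MC38-P is taken, the genes with the most similar pattern over the 9 libraries were sought by Pearson correlation of log2(TPM + 1), as a description. The points share the length trend and the MC38-P libraries. As these members were picked for their change from MC38-P, any gene that changed alike in both derivatives can rank high. A high r is therefore no sign of a link to the member. Uhrf1 was followed most closely by Larp4 (r = 0.996), Pabpc1 (0.994) and Azin1 (0.994), and Dnmt3b by Ccdc134 (0.977), Hnrnpa1 (0.975) and Ddx23 (0.974). All 6 of these lie on chromosome 15, which holds 4.13% of the tested genes, whereas Uhrf1 lies on chromosome 17 and Dnmt3b on chromosome 2. Mbd2 was followed by Tmcc2 (0.987), Ginm1 (0.987) and Mlx (0.986), on chromosomes 1, 10 and 11.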

How the data were processed

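The authors extracted RNA with TRIzol, selected poly(A) RNA, and deposited TPM per gene for 9 libraries, 3 per line, rounded to 2 decimals and summing to 1000000 per library. The submitters' processing notes name HISAT and the build GRCm39, without roles, and the quantification tool is not given in the sources used here. The study's own tests used counts, whereas TPM needs a test on a log scale. No library was pooled, and no column of the authors' own comparisons was used.

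The test was limma 3.58.1 (R 4.3.3) applied to log2(TPM + 1) of the 11287 genes that reached 1 TPM in 3 or more libraries, in 1 fit of all 9 libraries with a mean per group and a trended variance. Tests were two-sided, with Benjamini-Hochberg adjustment over every tested gene and calls at 0.05. A fold change is on the log2(TPM + 1) scale, which understates low genes. The correction was a loess fit (span 0.3) per library on GC content and length of the longest GENCODE M21 transcript, available for 98.3% of tested genes. The choice of the longest transcript followed a look at the values. The uncorrected fit was also run on simulated data with known changes. These data held independent spread and no length trend, so they cannot show how the trend or the correction acts here. Gene positions, transcript lengths and promoter windows are from GRCm38 annotations (RefSeq GRCm38.p6 and GENCODE M21) and carry no measurement of these libraries.

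Members and lists were chosen with earlier results of these data known. Every member is named, with, for each list, the called gene with the largest rise and the largest fall, and 3 genes most like each of 3 members. Alternatives were other pseudocounts, filters, scalings and variance models, a replicate block and left-out libraries. Figures were drawn with matplotlib 3.10.9 in Python 3.11.15.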

Additional observations from a re-analysis of the deposited data

How the results depend on the processing

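The length trend limits uncorrected values, and depth, which TPM does not give, limits Dnmt3b and Tet1. Shares in parentheses are those of all tested genes called the same way. Lower Dnmt3b and Uhrf1 in MC38-LM3a and higher Mbd2 in MC38-LM3b were called under every alternative that tested them. Over the members' fold changes, 435 alternatives kept direction and call, 61 made a call, 21 lost one and 56 turned the sign. The cause of these differences was not tested.

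Members called higher in MC38-LM3a went from 1 to 0 in a fit of only the compared groups (9.18%) or without a variance trend (13.8%). They were 0 to 1 with 1 library left out (10% to 14.2%). Members called lower in MC38-LM3a (2) were 1 at a filter of 5 TPM (13.0%), 5 after quantile normalization (20.5%), 4 after median centring (20.1%), 5 after correction for GC content and length (24.9%), 7 without both shifted libraries, replicate 3 of MC38-P and of MC38-LM3a (45.2%), and 2 to 7 with 1 library left out (8.57% to 23.2%). With correction, an alternative chosen after seeing the data, they were 6, 6 and 7 without the first, the second or both (23.6%, 25.7% and 27.6%). Members called lower in MC38-LM3b (2) were 1 with no filter (8.41%), at 5 TPM (10.9%) or without a variance trend (10.5%), 3 after quantile normalization (24.5%), 4 after median centring (26.4%), 5 after correction (28.8%), 4 without both shifted libraries (19.0%) and 0 to 2 with 1 left out (8.07% to 13.8%), and 5 in each corrected fit that left out shifted libraries (26.0% to 30.9%). Between the derivatives, 0 called members became 8 without both shifted libraries (71.7% in either direction), 0 to 6 with 1 left out (0% to 56.4%), and 1 with correction without MC38-LM3a replicate 3 (19.0%) or both (29.5%).

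Signs turned for MC38-LM3b against MC38-P as follows. Dnmt1 (0.01) was -0.07 after quantile normalization, -0.21 after median centring, -0.28 after correction, -0.09 without both shifted libraries, -0.27 or -0.28 with correction and shifted libraries left out, and -0.09 to 0.07 with 1 left out. Dnmt3a (0.15) was -0.10, -0.08, -0.20, -0.04, -0.23 or -0.20, and -0.04 to 0.29 under the same settings. Corrected values were -0.02 for Tet2 and -0.04 for Tet3, and -0.10 and -0.06 without MC38-P replicate 3 or both. Between the derivatives, corrected values were -0.01 for Dnmt1, -0.02 for Dnmt3a (-0.03 or -0.04 with libraries left out), -0.05 for Dnmt3b (-0.05 or -0.03), -0.03 for Uhrf1 and -0.10 for Tdg (-0.10 or -0.11). Median centring gave -0.01 for Dnmt3b, -0.03 for Uhrf1, -0.06 for Mbd2 and -0.14 for Tdg, and quantile normalization -0.05 for Tdg.

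Replicate numbers did not pair the samples, since correlations of same-numbered deviations ran from -0.662 to 0.075. With a replicate block, 0 members were called higher in MC38-LM3a (9.75%) and 0 lower in MC38-LM3b (8.43%). The replicate block with correction called 5 lower in each (23.3% and 26.9%), with -0.28 for Dnmt1, -0.20 for Dnmt3a, -0.02 for Tet2 and -0.04 for Tet3 in MC38-LM3b, and between the derivatives -0.01 for Dnmt1, -0.02 for Dnmt3a, -0.05 for Dnmt3b, -0.03 for Uhrf1 and -0.10 for Tdg.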
